A study of Mus musculus with 9 samples.

Results

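The genes described here are 44 that cells use to enter and complete mitosis: cyclins and kinases of mitotic entry, the Aurora kinases and their partners, spindle motors, the central spindle and cytokinesis machinery, condensin, the anaphase-promoting complex with its substrates, and the transcription factors Foxm1 and Mybl2. The list was put together by function, without kinetochore genes, and with earlier results of these data known. Its counts below are therefore descriptions, and the list itself was not tested. Where a gene has several probe sets with a single symbol, the brightest on average over the 9 arrays stood for it. Of the 44 genes, 43 were measured in this way, among 18193 genes in all, and Ccnb1 is not analysed here.

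RNA came from L8057, a mouse cell line of megakaryocytic type, on 9 one-colour arrays. CBFb_KD (3 arrays) carried a short hairpin RNA against CBFb, the partner subunit that stabilises RUNX proteins on DNA. Ring1b_KD (3 arrays) carried one against Ring1b, which is the gene Rnf2 and encodes the ubiquitin ligase of Polycomb repressive complex 1. Control (3 arrays) is labelled as carrying an empty vector. All 3 groups went through lentiviral infection, puromycin from 48 h afterwards and, with it, 50 nM of the phorbol ester TPA for 3 days to bring on maturation, and RNA was taken 72 h after puromycin was added. The groups therefore differ in the hairpin and share the virus, the drug and the phorbol ester. The sources used here do not give the hairpin sequences or how many hairpins were used per target, and a hairpin without a target was not analysed here.

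In mitosis, Cdk1 with A- and B-type cyclins switches on the kinases that condense chromosomes and build the spindle, and the anaphase-promoting complex then destroys securin and cyclins so that the chromatids part and cytokinesis follows. Megakaryocytes are known for endomitosis, in which cells enter mitosis but do not complete cytokinesis and so become polyploid. Many mitotic genes are transcribed in G2 from promoters that hold a CCAAT box, bound by NF-Y, and a cell cycle genes homology region, bound by the MuvB core together with B-Myb, FoxM1 or, in resting cells, pocket proteins.

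Each target was lower in its own knockdown. Cbfb (chr8:105170674-105217989, GRCm38.p6) read 9.32, 9.14 and 9.12 on the log2 scale in CBFb_KD, against 12.27, 12.33 and 12.50 in Control, a 9.02-fold decrease (limma adjusted p = 3.28e-10). Rnf2 (chr1:151469398-151500991) read 9.08, 8.96 and 8.92 in Ring1b_KD, against 10.56, 10.68 and 10.72 in Control, a 3.17-fold decrease (adjusted p = 3.31e-07). Values are log2 signals after quantile normalization, differences are log2 fold changes, intervals are at 95%, and calls are at limma's adjusted p under 0.05 over all 18193 genes. Replicate arrays correlated at 0.995 to 0.997, and arrays of different groups at 0.987 to 0.994.

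The mitotic genes were lower in CBFb_KD than in Control almost throughout. Of the 43 genes, 36 were called lower and 0 higher, where 15.4% of all genes were called, 7.6% lower and 7.78% higher. Because the list was chosen with earlier results of these data known, its count was not tested against that share. The log2 fold changes of the 43 genes ran from -1.07 for Aurkb to 0.43 for Ect2. Of these, 41 of 43 were below 0 (95.3%), against 53.9% over all genes. The median of the 43 was -0.46, against -0.01 over all genes. All 3 CBFb_KD arrays lay below all 3 Control arrays in 36 of the 43 genes (83.7%), against 16.9% of all genes. These were the same 36 genes as those called lower, so this is not a separate result. The count of 36 became 26 without CBFb_KD array 2 and 25 without Control array 3. Ect2 was the one gene whose CBFb_KD arrays all lay above Control. A fit blocked on replicate number called 37 genes lower and 1 higher. In RNA of whole cultures, fewer dividing cells and less of these mRNAs per cell cannot be told apart.

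In Ring1b_KD, 5 of 43 mitotic genes were called lower than in Control, namely Cdc25c, Smc4, Mki67, Birc5 and Ncapd2, and 0 were called higher, where 12.2% of all genes were called, 6.57% lower and 5.66% higher. The median log2 fold change was -0.08, against 0.01 over all genes. All Ring1b_KD arrays lay below Control in 15 of 43 genes (34.9%), against 16.6% of all genes. Without Ring1b_KD array 2 the count of 5 became 3, and without Control array 3 it became 2. It also depended on how the arrays are scaled: 16 were called lower with the values as deposited and 18 with the arrays centred on their medians, with medians of -0.18 and -0.27. Over all genes, the same change of scaling gave splits of 1709 lower and 882 higher as deposited and 2543 lower and 352 higher centred, in place of 1196 and 1029. The CBFb_KD count was 35 under either of these scalings.

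**Figure D1:**
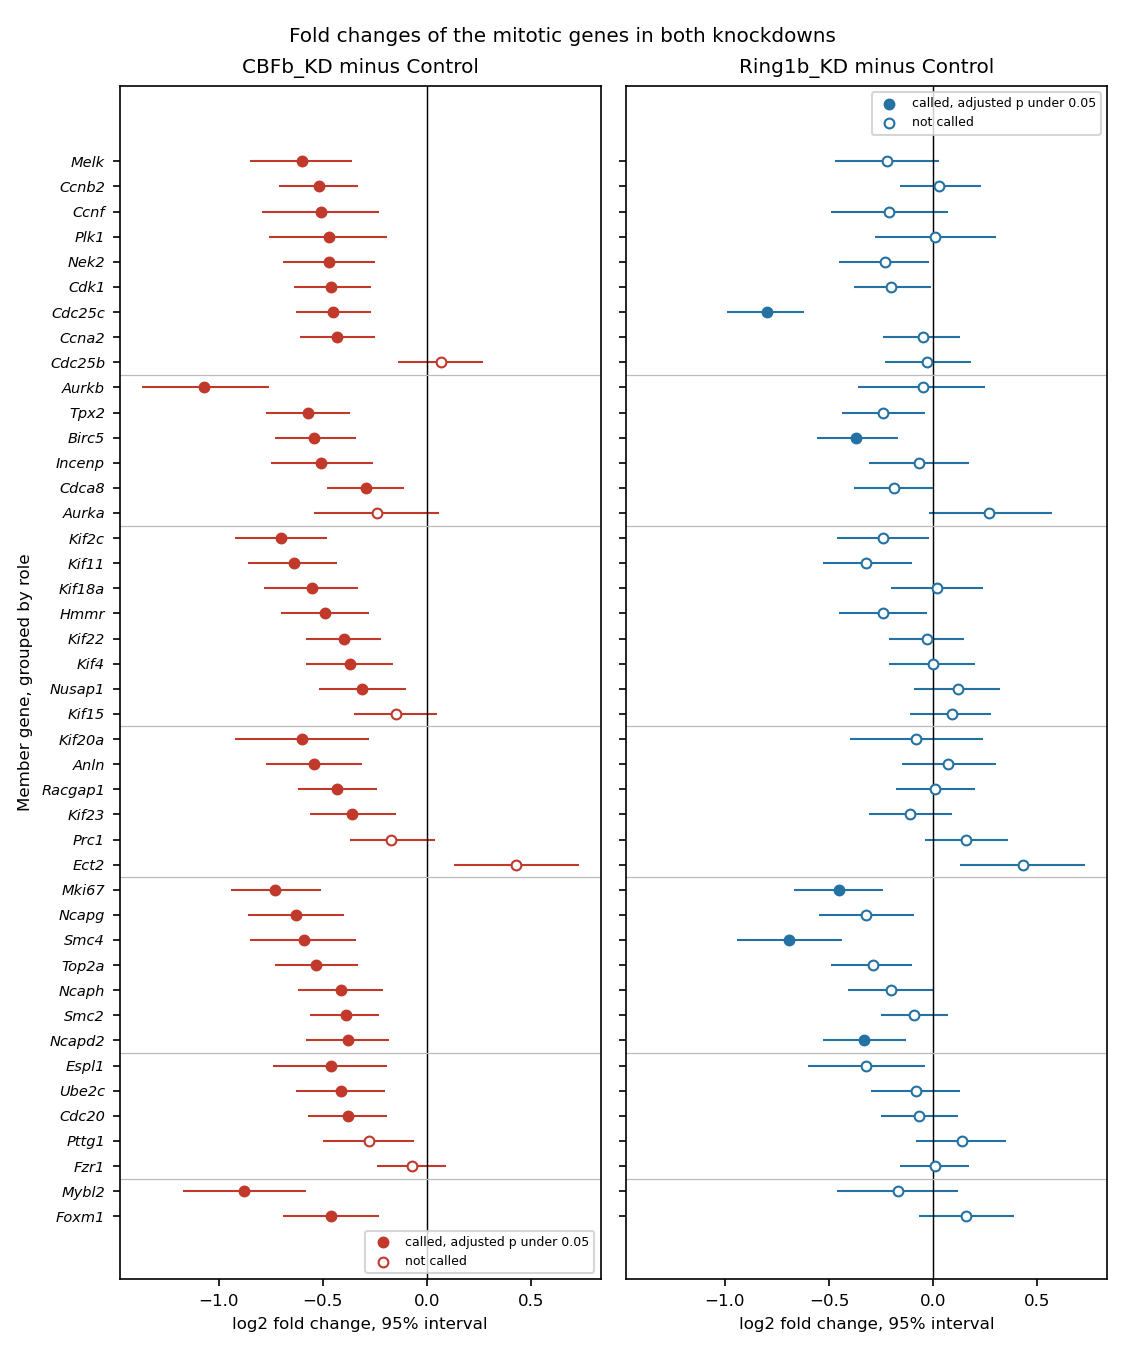
Log2 fold changes against Control (horizontal axis) of the 43 measured genes, grouped by role, for CBFb_KD on the left and Ring1b_KD on the right, with 95% intervals as lines and filled points for genes called. The CBFb_KD values lie below 0 for all but Ect2 and Cdc25b, while in Ring1b_KD the 5 filled points are Cdc25c, Birc5, Mki67, Smc4 and Ncapd2.

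The promoters of these genes are shown because the genes moved together in CBFb_KD. RefSeq promoter windows (GRCm38.p6, 250 bases before to 50 after the start) were found for 35 of the 43 genes, in 37 windows. Ect2 and Prc1 have overlapping windows, which were counted separately. Of these windows, 75.7% held TTTGAA or TTCGAA, the cell cycle genes homology region, against 15.1% of the 18109 windows of all genes tested and 19.2% of all 32851 windows. CCAAT stood in 73% of them, against 37.4% of the windows of genes tested, and both motifs together in 67.6%, against 5.97%. TGTGGT, the core binding factor motif, stood in 16.2%, against 13.7%, and the E2F motifs TTGGCGC or TTCCCGC in 24.3%, against 9.86%. Motifs were searched on both strands. Among the 118 matches in these windows there were 3 overlapping pairs of different motifs, with the Ect2 pair counted in both of its windows. A match is a string of letters and was not tested for binding.

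The motifs stood both in genes called lower in CBFb_KD and in genes not called. In the 28 windows of genes called lower, 75% held the homology region, 71.4% CCAAT, 14.3% the core binding factor motif and 21.4% an E2F motif. In the 9 windows of the 7 genes not called, the shares were 77.8%, 77.8%, 22.2% and 33.3%, and with 9 windows a difference was not tested. Both windows with the core binding factor motif in this group belong to Ect2, whose windows overlap and hold the same site. An E2F site of Ect2 was likewise counted in both.

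**Figure D2:**
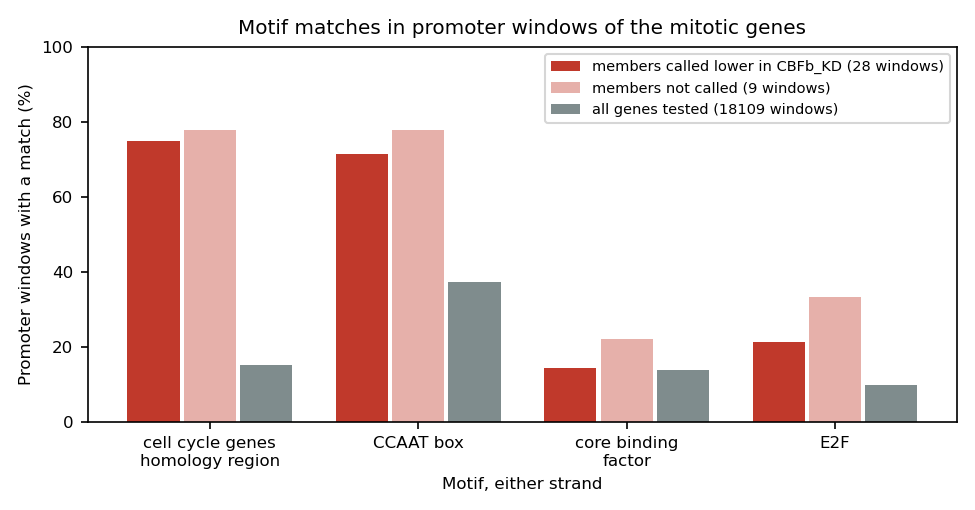
Share of promoter windows with a match (percent) for each motif, for the 28 windows of genes called lower in CBFb_KD, the 9 windows of genes not called and the 18109 windows of all genes tested. The homology region stands in 75% and 77.8% of the mitotic genes' windows, against 15.1%, and the core binding factor motif in 14.3% and 22.2%, against 13.7%. The 22.2% rests on the same Ect2 site, counted in both of that gene's overlapping windows.

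The promoter of the gene with the smallest adjusted p of each role that has a window is printed below, followed by those of Ect2 and Cdc25b, whose log2 fold changes in CBFb_KD were above 0. Each runs 5′ to 3′ on the gene's strand over 180 bases, 150 before the start and 30 after it, from RefSeq on GRCm38.p6. Capitals mark matches to the 4 motifs on either strand. The stretches of Kif2c, Mybl2, Ect2 and Cdc25b lie inside the spans of their genes, so their starts are not the outermost ones. That of Kif2c lies farthest inside, as the gene spans chr4:117159633-117182624. Which start these cells use was not tested.
Ccnb2 (chr9:70421525-70421704, minus strand): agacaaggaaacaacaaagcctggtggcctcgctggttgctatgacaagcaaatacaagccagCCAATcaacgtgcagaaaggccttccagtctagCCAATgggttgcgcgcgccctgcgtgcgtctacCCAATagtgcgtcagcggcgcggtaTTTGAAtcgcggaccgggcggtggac
Birc5 (chr11:117849087-117849266, plus strand): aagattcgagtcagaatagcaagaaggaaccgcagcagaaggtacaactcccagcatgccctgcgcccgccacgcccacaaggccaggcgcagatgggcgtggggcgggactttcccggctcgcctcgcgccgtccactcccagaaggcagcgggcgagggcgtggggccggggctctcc
Kif2c (chr4:117178743-117178922, minus strand): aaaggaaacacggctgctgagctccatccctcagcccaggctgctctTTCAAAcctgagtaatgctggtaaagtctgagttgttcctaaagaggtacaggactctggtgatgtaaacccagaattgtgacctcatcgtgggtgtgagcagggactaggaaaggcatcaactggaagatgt
Anln (chr9:22389177-22389356, minus strand): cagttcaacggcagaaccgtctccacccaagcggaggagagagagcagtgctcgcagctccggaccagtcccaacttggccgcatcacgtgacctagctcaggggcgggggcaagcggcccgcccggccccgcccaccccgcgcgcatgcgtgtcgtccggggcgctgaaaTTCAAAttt
Mki67 (chr7:135716350-135716529, minus strand): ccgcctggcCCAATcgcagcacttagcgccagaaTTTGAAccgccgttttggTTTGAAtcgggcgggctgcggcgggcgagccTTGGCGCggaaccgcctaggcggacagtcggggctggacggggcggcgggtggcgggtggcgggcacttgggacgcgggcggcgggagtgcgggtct
Cdc20 (chr4:118437314-118437493, minus strand): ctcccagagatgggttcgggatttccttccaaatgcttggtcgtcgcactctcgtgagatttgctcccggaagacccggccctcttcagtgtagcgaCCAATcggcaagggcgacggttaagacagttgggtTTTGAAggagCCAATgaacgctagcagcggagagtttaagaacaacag
Mybl2 (chr2:163054485-163054664, plus strand): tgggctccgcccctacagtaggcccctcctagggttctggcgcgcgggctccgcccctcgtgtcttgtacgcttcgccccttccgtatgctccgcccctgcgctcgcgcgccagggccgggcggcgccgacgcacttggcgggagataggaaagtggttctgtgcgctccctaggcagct
Ect2 (chr3:27153849-27154028, minus strand): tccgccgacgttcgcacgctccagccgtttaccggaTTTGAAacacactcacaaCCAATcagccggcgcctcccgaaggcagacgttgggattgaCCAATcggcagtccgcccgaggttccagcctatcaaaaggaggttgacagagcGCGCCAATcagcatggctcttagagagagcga
Cdc25b (chr2:131186798-131186977, plus strand): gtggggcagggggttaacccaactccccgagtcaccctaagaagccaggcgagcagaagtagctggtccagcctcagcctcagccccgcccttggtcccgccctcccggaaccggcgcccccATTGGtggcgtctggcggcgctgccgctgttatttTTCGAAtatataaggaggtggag
In Ccnb2, CCAAT begins at positions -87, -54 and -21 and TTTGAA at position 5, counted from the start with no position 0. Mki67 has TTTGAA at -116 and -98, CCAAT at -141 and the E2F motif at -67. Ect2, shown by 1 of its windows, holds CCAAT at -96, -55 and 2, the last overlapping an E2F match, and TTTGAA at -114. No match was found in the printed stretches of Birc5 and Mybl2, which says only that these letters are not in these windows.

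Kinases, cyclins and phosphatases of mitotic entry were lower in CBFb_KD in 8 of 9 cases, with a median log2 fold change of -0.47. Ccnb2, a B-type cyclin, read 10.49, 10.44 and 10.36 in CBFb_KD and 11.19, 10.84 and 10.92 in Ring1b_KD, against 10.96, 10.93 and 10.96 in Control. The CBFb_KD arrays lay below all others, at -0.52 against Control (interval -0.71 to -0.33, adjusted p = 0.00156), while Ring1b_KD overlapped Control at 0.03 (interval -0.16 to 0.23). Cdc25c, a phosphatase that activates Cdk1, read 7.86, 7.78 and 7.82 in CBFb_KD and 7.57, 7.36 and 7.47 in Ring1b_KD, against 8.16, 8.26 and 8.38 in Control. The 3 groups did not overlap: Cdc25c fell by 0.45 in CBFb_KD (adjusted p = 0.00276) and by 0.80 in Ring1b_KD (adjusted p = 0.000113), and it was the one gene of the 43 that was called higher in CBFb_KD than in Ring1b_KD, by 0.35 (adjusted p = 0.0106).

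Cdc25b, the related phosphatase, went another way. It read 9.60, 9.53 and 9.38 in CBFb_KD and 9.32, 9.33 and 9.57 in Ring1b_KD, against 9.54, 9.37 and 9.40 in Control, so that all groups overlapped and no comparison was called (0.07 in CBFb_KD, adjusted p = 0.751). The other entry genes called lower in CBFb_KD were Melk (-0.60), Ccnf (-0.51), Plk1 (-0.47), Nek2 (-0.47), Cdk1 (-0.46) and Ccna2 (-0.43). Plk1, a kinase of spindle assembly and mitotic exit, was the least steady of these. Its call was lost without CBFb_KD array 2 (-0.32, adjusted p = 0.12) or 3 (-0.49, adjusted p = 0.0634) and when leaving out Control array 1 (-0.47, adjusted p = 0.082) or 3 (-0.40, adjusted p = 0.129). Ccnf, the F-box protein cyclin F, lost its call without CBFb_KD array 2 (-0.35, adjusted p = 0.0726) and when leaving out Control array 1 (-0.50, adjusted p = 0.058) or 3 (-0.41, adjusted p = 0.0929). Nek2, a kinase that separates centrosomes, lost it where the mean of its probe sets was used (-0.17, adjusted p = 0.156).

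Among the Aurora kinases and the chromosomal passenger complex, 5 of 6 were lower in CBFb_KD, with a median of -0.52. Aurkb (chr11:69045624-69051664), the kinase of the complex that corrects chromosome attachment and steers cytokinesis, read 9.28, 8.89 and 8.95 in CBFb_KD and 10.17, 9.73 and 10.27 in Ring1b_KD, against 10.23, 9.96 and 10.13 in Control. The CBFb_KD arrays lay below all others, a 2.09-fold decrease (log2 fold change -1.07, interval -1.37 to -0.76, adjusted p = 0.000275), while Ring1b_KD overlapped Control (-0.05, interval -0.36 to 0.25). A second probe set of Aurkb was also lower in CBFb_KD (-1.09). Tpx2, which activates Aurora A on the spindle, read 9.53, 9.35 and 9.37 in CBFb_KD and 9.72, 9.74 and 9.79 in Ring1b_KD, against 9.87, 9.91 and 10.18 in Control. All groups were apart, at -0.57 in CBFb_KD (adjusted p = 0.00116) and -0.24 in Ring1b_KD, which was not called (adjusted p = 0.121). Tpx2 was called lower in Ring1b_KD with the values as deposited (-0.34, adjusted p = 0.0287) and with arrays centred on their medians (-0.43, adjusted p = 0.0106).

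Birc5, or survivin, which targets the complex to centromeres, read 11.18, 10.85 and 10.90 in CBFb_KD and 11.17, 11.05 and 11.22 in Ring1b_KD, against 11.47, 11.52 and 11.56 in Control. Both knockdowns lay below Control without overlap and overlapped each other, at -0.54 in CBFb_KD (adjusted p = 0.00128) and -0.37 in Ring1b_KD (adjusted p = 0.0181). The Ring1b_KD call of Birc5 was lost without Ring1b_KD array 2 (-0.32, adjusted p = 0.0655) and when leaving out Control array 2 (-0.37, adjusted p = 0.0663) or 3 (-0.34, adjusted p = 0.076). Incenp, the scaffold of the complex, was lower in CBFb_KD, at -0.51. Cdca8, or borealin, was the weakest at -0.29 (adjusted p = 0.0366), and its call was lost without CBFb_KD array 2 (-0.22, adjusted p = 0.159) or 3 (-0.28, adjusted p = 0.112), without Control array 1 (-0.30, adjusted p = 0.089), 2 (-0.33, adjusted p = 0.0548) or 3 (-0.25, adjusted p = 0.162), and in a fit of CBFb_KD and Control alone (adjusted p = 0.0514).

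Aurka, the Aurora kinase of centrosomes and spindle poles, did not follow Aurkb. It read 10.17, 9.61 and 10.00 in CBFb_KD and 10.51, 10.26 and 10.53 in Ring1b_KD, against 10.25, 9.95 and 10.28 in Control. The CBFb_KD arrays overlapped Control (-0.24, interval -0.54 to 0.06, adjusted p = 0.331). Within each array, Aurkb minus Aurka was -0.89, -0.71 and -1.04 in CBFb_KD and -0.35, -0.54 and -0.26 in Ring1b_KD, against -0.02, 0.01 and -0.15 in Control. The groups did not overlap (an exact two-sided permutation test gave p = 0.1 for each knockdown, the smallest that 3 against 3 arrays can give). This pair and the others compared within arrays were chosen after their values were seen.

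Of the spindle motors and spindle proteins, 7 of 8 were lower in CBFb_KD, with a median of -0.44, and 0 of 8 were called in Ring1b_KD. With the values as deposited, 3 were lower in Ring1b_KD: Kif11 (adjusted p = 0.0158), Kif2c (adjusted p = 0.0414) and Hmmr (adjusted p = 0.0311). The same genes were called with arrays centred on their medians (adjusted p = 0.00485, 0.0126 and 0.0104). Kif2c, a kinesin that shortens microtubules at centromeres, read 9.07, 8.64 and 8.80 in CBFb_KD and 9.34, 9.24 and 9.33 in Ring1b_KD, against 9.51, 9.50 and 9.61 in Control. All groups were apart, with a decrease of 1.63-fold in CBFb_KD (log2 fold change -0.70, interval -0.92 to -0.48, adjusted p = 0.000529) and a value of -0.24 in Ring1b_KD that was not called (adjusted p = 0.153). Kif11, the motor that pushes spindle poles apart, read 9.02, 8.66 and 8.83 in CBFb_KD and 9.23, 9.02 and 9.25 in Ring1b_KD, against 9.48, 9.44 and 9.51 in Control. CBFb_KD was lower, at -0.64 (adjusted p = 0.000781), and Ring1b_KD, also below every Control array, stood at -0.32 (adjusted p = 0.0576).

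Kif15, a motor that can stand in for Kif11, read 7.30, 7.52 and 7.51 in CBFb_KD and 7.58, 7.71 and 7.75 in Ring1b_KD, against 7.47, 7.62 and 7.69 in Control. Its groups overlapped Control and it was not called (-0.15 in CBFb_KD, adjusted p = 0.354). The rest were lower in CBFb_KD: Kif18a, which aligns chromosomes (-0.55), the microtubule-binding Hmmr (-0.49), the chromokinesins Kif22 (-0.40) and Kif4 (-0.37), and Nusap1, a spindle microtubule protein (-0.31). Kif4 lost its call without CBFb_KD array 2 (-0.30, adjusted p = 0.0868) or 3 (-0.35, adjusted p = 0.0663) and when leaving out Control array 3 (-0.32, adjusted p = 0.0948). Nusap1 (adjusted p = 0.047) lost it in 8 of the 17 alternatives tried, the values as deposited among them (-0.30, adjusted p = 0.0721). For Nusap1 these included leaving out CBFb_KD array 2 (-0.29, adjusted p = 0.136) or 3 (-0.26, adjusted p = 0.173), Control array 1 (-0.31, adjusted p = 0.114), 2 (-0.28, adjusted p = 0.153) or 3 (-0.33, adjusted p = 0.0995), and Ring1b_KD array 3 (adjusted p = 0.0508).

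**Figure D3:**
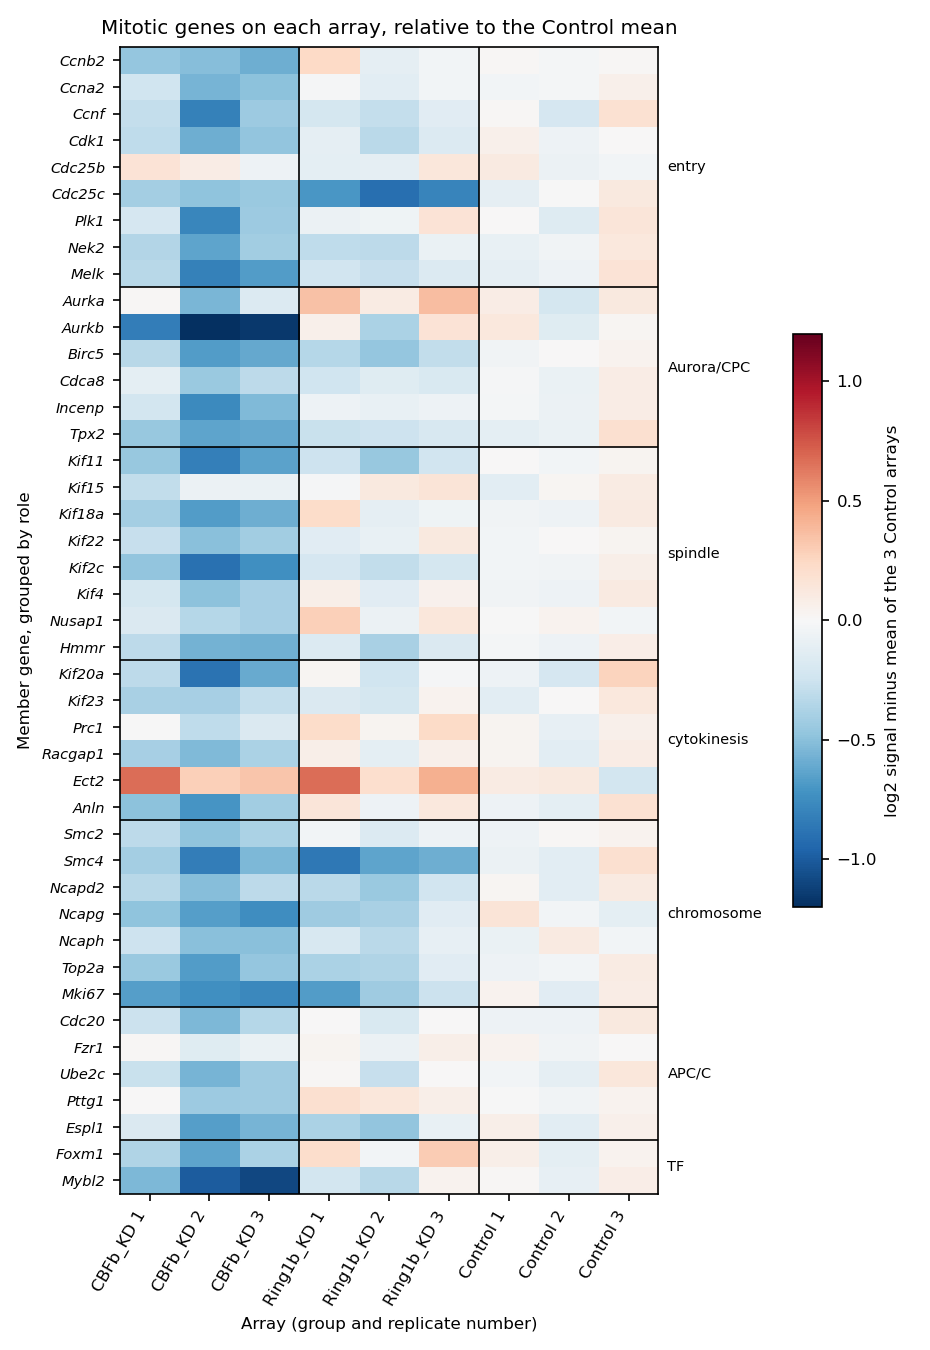
Log2 signal minus the gene's Control mean, as colour, for each measured mitotic gene (rows, grouped by role) on each of the 9 arrays (columns). The CBFb_KD columns are blue, below the Control mean, in 38, 41 and 42 of 43 rows, and Ect2 is red on all CBFb_KD and Ring1b_KD arrays.

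At the central spindle and in cytokinesis, 4 of 6 genes were lower in CBFb_KD, with a median of -0.39, and 0 were called in Ring1b_KD. Anln, the scaffold anillin of the contractile ring, read 7.96, 7.74 and 8.03 in CBFb_KD and 8.60, 8.39 and 8.58 in Ring1b_KD, against 8.39, 8.33 and 8.63 in Control. CBFb_KD lay below all others (-0.54, adjusted p = 0.00355), and Ring1b_KD overlapped Control. Racgap1, a subunit of centralspindlin, read 9.75, 9.62 and 9.77 in CBFb_KD and 10.22, 10.03 and 10.21 in Ring1b_KD, against 10.18, 10.02 and 10.24 in Control. The CBFb_KD arrays lay below all others, at -0.43 against Control (adjusted p = 0.0044), and Racgap1 stood at 0.01 in Ring1b_KD.

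Its partner in centralspindlin, the motor Kif23, was lower in CBFb_KD, at -0.36 (adjusted p = 0.0194), a call that did not hold without CBFb_KD array 2 (-0.33, adjusted p = 0.073) and when leaving out Control array 2 (-0.35, adjusted p = 0.0603) or 3 (-0.29, adjusted p = 0.106). Kif20a, the motor that brings the passenger complex to the central spindle, was lower, at -0.60 (adjusted p = 0.0143), a call that did not hold without CBFb_KD array 2 (-0.45, adjusted p = 0.0682) or Control array 3 (-0.46, adjusted p = 0.0757). Prc1, a protein that bundles midzone microtubules and is unrelated to the Polycomb complex of that name, read 10.28, 9.98 and 10.11 in CBFb_KD and 10.51, 10.32 and 10.52 in Ring1b_KD, against 10.32, 10.19 and 10.35 in Control. It overlapped Control in both knockdowns and was not called (-0.17 and 0.16).

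Ect2 (chr3:27097222-27154253) is the exchange factor that centralspindlin recruits for the cleavage furrow, and it stood apart from its partners. It read 9.13, 8.75 and 8.79 in CBFb_KD and 9.13, 8.66 and 8.89 in Ring1b_KD, against 8.56, 8.58 and 8.24 in Control. Every knockdown array lay above every Control array, by 0.43 in CBFb_KD (interval 0.13 to 0.73, adjusted p = 0.0536) and by 0.43 in Ring1b_KD (interval 0.13 to 0.73, adjusted p = 0.0611), and neither passed the threshold. In the fit blocked on replicate number, Ect2 was called higher in CBFb_KD (0.43, adjusted p = 0.0126). Across 17 alternatives its log2 fold change ran from 0.31 to 0.50 in CBFb_KD, with adjusted p from 0.0126 to 0.233 and a call in 7 of them. In Ring1b_KD it ran from 0.28 to 0.55, with adjusted p from 0.0169 to 0.225 and a call in 4. Within each array, Ect2 minus Racgap1 was -0.62, -0.87 and -0.98 in CBFb_KD and -1.08, -1.38 and -1.32 in Ring1b_KD, against -1.62, -1.44 and -1.99 in Control. The groups did not overlap (exact permutation p = 0.1 for each knockdown). Ect2 has 1 probe set, so no other reading was at hand.

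All 7 condensin and chromosome genes were lower in CBFb_KD, with a median of -0.53, and 3 of them in Ring1b_KD, with a median of -0.32. The Ring1b_KD count depended on the scaling. It was 6 of 7 with the values as deposited (median -0.42) and with arrays centred on their medians (median -0.51). The CBFb_KD count was 7 under either of these scalings (medians -0.53 and -0.54). Mki67 (chr7:135689784-135716450), which coats mitotic chromosomes and encodes the proliferation antigen Ki-67, read 11.24, 11.17 and 11.13 in CBFb_KD and 11.23, 11.48 and 11.65 in Ring1b_KD, against 11.95, 11.77 and 11.99 in Control. Both knockdowns lay below Control without overlap. CBFb_KD was lower 1.66-fold (log2 fold change -0.73, interval -0.94 to -0.51, adjusted p = 0.000367) and Ring1b_KD was lower at -0.45 (adjusted p = 0.0114), a call that missed the threshold without Control array 3 (-0.41, adjusted p = 0.0548).

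Smc4, a core ATPase of condensin, read 11.57, 11.14 and 11.43 in CBFb_KD and 11.12, 11.34 and 11.39 in Ring1b_KD, against 11.90, 11.85 and 12.17 in Control. The knockdowns overlapped each other and lay below Control, at -0.59 in CBFb_KD (adjusted p = 0.00388) and -0.69 in Ring1b_KD (adjusted p = 0.00259). Ncapg, a subunit of condensin I, read 9.14, 8.96 and 8.87 in CBFb_KD and 9.19, 9.23 and 9.48 in Ring1b_KD, against 9.77, 9.59 and 9.50 in Control. It was lower in CBFb_KD, at -0.63 (adjusted p = 0.00126), and its value of -0.32 in Ring1b_KD was not called (adjusted p = 0.0648), although its arrays lay below Control. Ncapg was called lower in Ring1b_KD with the values as deposited (-0.42, adjusted p = 0.0129) and with arrays centred on their medians (-0.51, adjusted p = 0.00292).

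Ncapd2, another subunit of condensin I, read 9.49, 9.32 and 9.51 in CBFb_KD and 9.50, 9.38 and 9.60 in Ring1b_KD, against 9.85, 9.70 and 9.93 in Control. The knockdowns overlapped each other and lay below Control, at -0.38 in CBFb_KD (adjusted p = 0.0124) and at -0.33 in Ring1b_KD (adjusted p = 0.0335), but the mean of its probe sets gave -0.20 (adjusted p = 0.134) and -0.15 (adjusted p = 0.268). The Ncapd2 call in CBFb_KD was also lost without CBFb_KD array 2 (-0.32, adjusted p = 0.0598) or Control array 3 (-0.33, adjusted p = 0.0696). In Ring1b_KD it was lost without Ring1b_KD array 1 (-0.33, adjusted p = 0.0707) or 2 (-0.27, adjusted p = 0.113) and when leaving out Control array 1 (-0.32, adjusted p = 0.0953) or 3 (-0.28, adjusted p = 0.138). Top2a, the topoisomerase that untangles sister chromatids, was lower in CBFb_KD (-0.53), though the mean of its probe sets gave -0.22 (adjusted p = 0.0791). Ncaph, also of condensin I, was lower (-0.41) and missed the threshold without Control array 2 (-0.36, adjusted p = 0.0506), and Smc2, the partner of Smc4, was lower (-0.39).

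Of the anaphase genes, Cdc20, Ube2c and Espl1 were lower in CBFb_KD and Fzr1 and Pttg1 were not called, with a median of -0.38 over the 5. Cdc20, the activator of the anaphase-promoting complex in mitosis, read 11.93, 11.65 and 11.84 in CBFb_KD and 12.19, 12.00 and 12.19 in Ring1b_KD, against 12.13, 12.13 and 12.30 in Control. CBFb_KD lay below all others (-0.38, adjusted p = 0.00917), a call lost when Control array 3 was left out (-0.33, adjusted p = 0.0545). Ube2c, the ubiquitin-conjugating enzyme of the complex, read 11.30, 11.01 and 11.14 in CBFb_KD and 11.58, 11.29 and 11.57 in Ring1b_KD, against 11.53, 11.46 and 11.70 in Control. CBFb_KD lay below Control without overlap, at -0.41 (adjusted p = 0.0133), a call that did not hold without CBFb_KD array 2 (-0.34, adjusted p = 0.0635) or Control array 3 (-0.35, adjusted p = 0.0749).

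Fzr1, or Cdh1, the activator that works from late mitosis into G1, read 10.21, 10.05 and 10.12 in CBFb_KD and 10.23, 10.13 and 10.27 in Ring1b_KD, against 10.24, 10.16 and 10.20 in Control. All groups overlapped (-0.07 in CBFb_KD, interval -0.24 to 0.09, adjusted p = 0.636). Pttg1, or securin, read 12.35, 11.91 and 11.92 in CBFb_KD and 12.54, 12.48 and 12.41 in Ring1b_KD, against 12.34, 12.30 and 12.39 in Control. CBFb_KD array 1 reached the Control level and the other two lay below it (-0.28, adjusted p = 0.0831). In the fit blocked on replicate number it was called lower (-0.28, adjusted p = 0.0391). Without CBFb_KD array 1, Pttg1 was called at -0.43 (adjusted p = 0.00148). Another probe set of the gene was called lower, at -0.42, and the remaining one was not called (-0.07, adjusted p = 0.761). Espl1, or separase, was lower in CBFb_KD, at -0.46 (adjusted p = 0.0267), a call that did not hold without CBFb_KD array 2 (-0.37, adjusted p = 0.12) or 3 (-0.42, adjusted p = 0.0972) and when leaving out Control array 1 (-0.43, adjusted p = 0.0933) or 3 (-0.43, adjusted p = 0.0987).

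Both transcription factors of the program were lower in CBFb_KD. Mybl2 (chr2:163054327-163084688), or B-Myb, read 8.96, 8.50 and 8.40 in CBFb_KD and 9.28, 9.16 and 9.54 in Ring1b_KD, against 9.51, 9.40 and 9.58 in Control. CBFb_KD lay below all others, with a 1.84-fold decrease (log2 fold change -0.88, interval -1.17 to -0.58, adjusted p = 0.000781), and Ring1b_KD overlapped Control (-0.17, adjusted p = 0.462). Foxm1 read 9.53, 9.26 and 9.51 in CBFb_KD and 10.10, 9.86 and 10.20 in Ring1b_KD, against 9.96, 9.78 and 9.94 in Control. CBFb_KD lay below all others, at -0.46 against Control (adjusted p = 0.0098), and Foxm1 stood at 0.16 in Ring1b_KD (adjusted p = 0.367). Within each array, Mybl2 minus Foxm1 averaged -0.82 ± 0.27 in CBFb_KD and -0.73 ± 0.08 in Ring1b_KD, against -0.40 ± 0.05 in Control (SD, n = 3 each; exact permutation p = 0.1 for each knockdown).

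Many of these genes also had the same order of arrays within a group. This order was not counted over all genes, so whether it is particular to these genes was not tested. CBFb_KD array 1 was the highest of its group in 38 of 43 genes and array 2 the lowest in 35. Ring1b_KD array 2 was the lowest of its group in 32 and array 3 the highest in 26, while Control array 2 was the lowest of its group in 27 and array 3 the highest in 32. Array 2 was thus the lowest of each group in most of the 43 genes. As medians over the 43 genes, relative to the Control mean of each, the arrays stood at -0.31, -0.57 and -0.43 in CBFb_KD and at -0.10, -0.21 and -0.03 in Ring1b_KD, against -0.02, -0.06 and 0.09 in Control. Over all genes, whose arrays were quantile normalized, these medians were 0.01, -0.02 and -0.02 in CBFb_KD. They were 0.01, 0 and 0 in Ring1b_KD and 0 on each Control array. The SD of a gene over 3 arrays had a median of 0.15 in CBFb_KD and 0.13 in Ring1b_KD, against 0.10 in Control.

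**Figure D4:**
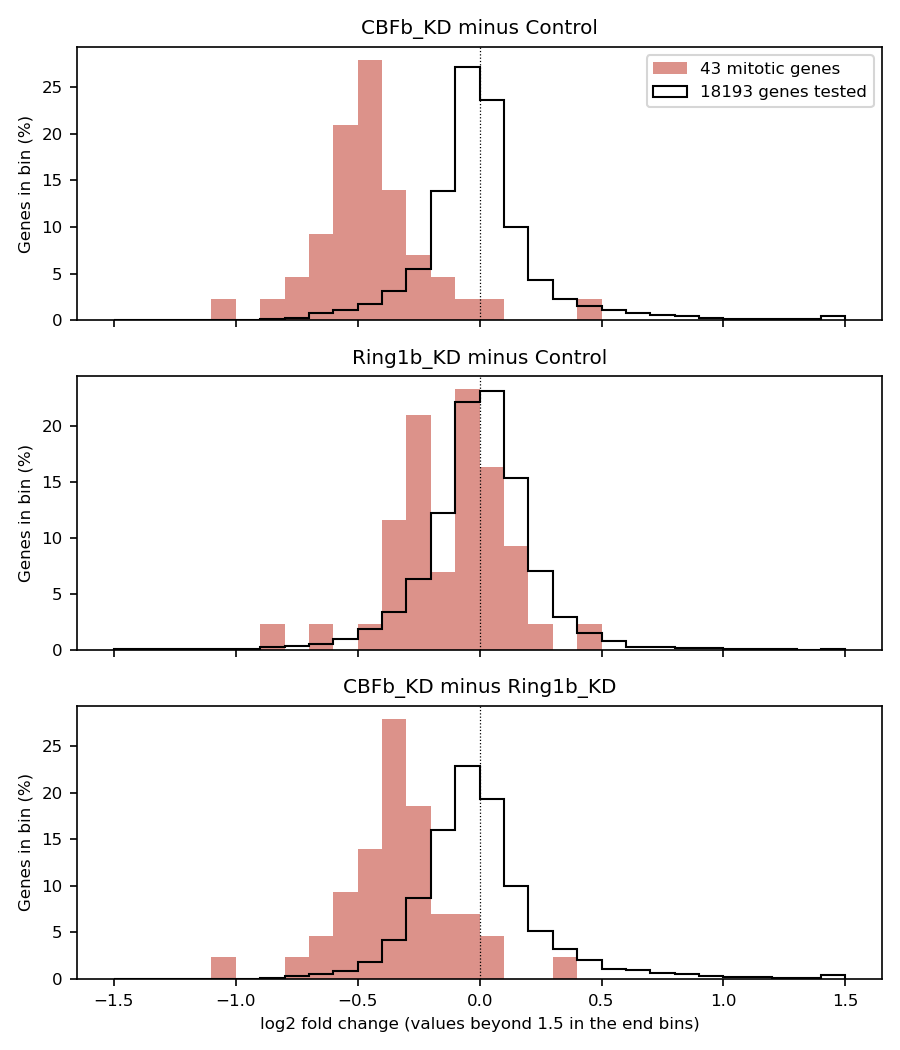
Percent of genes in each bin of log2 fold change, for the 43 measured mitotic genes (filled) and the 18193 genes tested (outline), in the 3 comparisons. The mitotic genes centre on -0.46 in CBFb_KD against Control, -0.08 in Ring1b_KD against Control and -0.33 in CBFb_KD against Ring1b_KD, against -0.01, 0.01 and -0.02 for all genes.

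Set against each other, the knockdowns differed in 25 of the 43 genes: 24 were lower in CBFb_KD and 1, Cdc25c, was higher, where 19.4% of all genes were called, 9.31% lower and 10.1% higher. The median was -0.33, against -0.02 over all genes. All CBFb_KD arrays lay below all Ring1b_KD arrays in 27 of the 43 genes (62.8%), against 17.6% of all genes. The largest differences were those of Aurkb (-1.01, adjusted p = 0.000303), Mybl2 (-0.71), Foxm1 (-0.62), Anln (-0.61), Kif18a (-0.57) and Ccnb2 (-0.55). Not called were, among others, Smc4 (0.10, interval -0.16 to 0.35), Ncapd2 (-0.05, interval -0.25 to 0.15) and Ect2 (0.00, interval -0.30 to 0.30). Of the 7 condensin and chromosome genes, 1 (Smc2) was called between the knockdowns, and the mean of its probe sets gave 0.05 (adjusted p = 0.724) in place of -0.30. Aurka (-0.51), Prc1 (-0.33) and Pttg1 (-0.42) were lower in CBFb_KD than in Ring1b_KD without a call against Control.

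The number of genes that separate the knockdowns also depended on the scaling and on single arrays. With the values as deposited, 13 were lower and 1 higher, and with arrays centred on their medians, 6 were lower and 2 higher, Cdc25c and Cdc25b (0.29). Over all genes the split of 1693 lower and 1843 higher became 1284 and 2118, and 512 and 2725. Without CBFb_KD array 2, 3 or Ring1b_KD array 3, the count of lower genes was 12, 13 and 14. Of the calls above, 22 of 36 in CBFb_KD, 2 of 5 in Ring1b_KD (Cdc25c and Smc4) and 6 of 25 between the knockdowns held in all 17 alternatives.

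**Figure D5:**
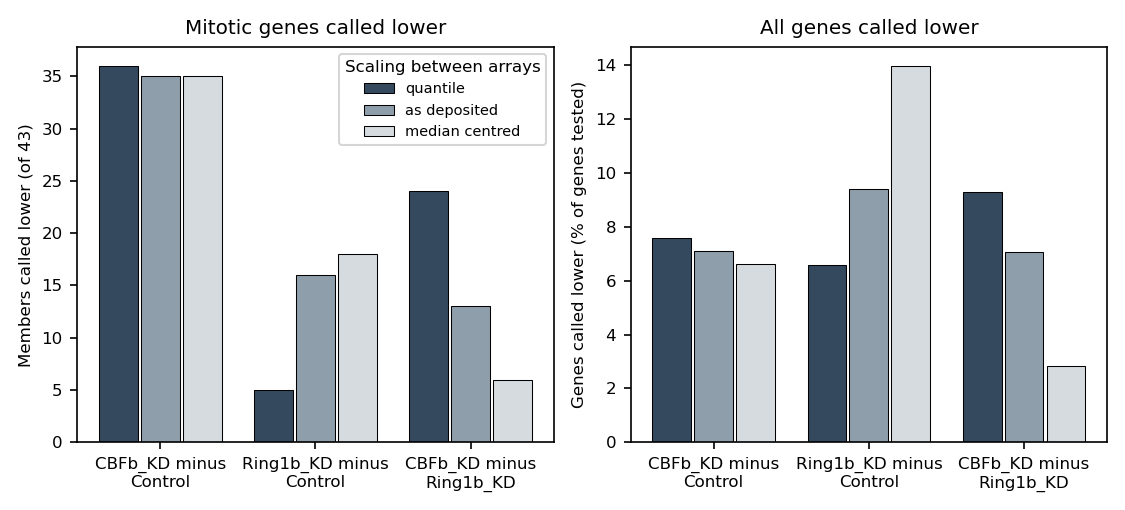
Number of the 43 mitotic genes called lower (left) and percent of all genes tested called lower (right) in each comparison, under quantile normalization, as deposited and with arrays centred on their medians. The CBFb_KD against Control bars stand at 36, 35 and 35, those of Ring1b_KD against Control at 5, 16 and 18, and those of CBFb_KD against Ring1b_KD at 24, 13 and 6.

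The other probe sets of these genes gave further readings. Over 29 genes there were 55 of them, of which 25 were called lower and 0 higher in CBFb_KD against Control, in a fit to all 45037 probe sets that called 4.75% lower and 4.89% higher. In Ring1b_KD, 8 were lower and 0 higher, where the background was 4.71% and 3.77%. Some of these differed from the probe set used above. For Smc2, other probe sets were lower in Ring1b_KD, at -0.67 and -0.74, while the one used stood at -0.09. For Tpx2 and for Nusap1, another probe set was lower, at -0.67 and -0.49, where those used stood at -0.24 and 0.12. The remaining ones of Tpx2 stood at 0.07 and 0.16 in Ring1b_KD and were not called. In CBFb_KD these were not called either (-0.20 and -0.24), while the Tpx2 probe set at -0.67 in Ring1b_KD was lower there too (-0.66). For Smc4, called in Ring1b_KD at -0.69 above, another probe set was lower too (-0.57) and the remaining one was not called (-0.16, adjusted p = 0.354). Which transcripts each probe set reads was not analysed here. The probe sets used for 7 of the 43 genes, Aurkb and Cdc25c among them, are of the class whose probes may also match other sequences (suffix x_at). In that fit, Cdca8 (adjusted p = 0.0534) and Nusap1 (adjusted p = 0.0718) missed the threshold in CBFb_KD.

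Further genes of the same processes were counted beside all genes tested. Over 6 lists of 108 measured genes outside the 43, 36 were lower and 5 higher in CBFb_KD, with a median of -0.15, and 16 were lower and 11 higher in Ring1b_KD, with a median of -0.04. Over all genes, 7.6% were called lower and 7.78% higher in CBFb_KD, and 6.57% and 5.66% in Ring1b_KD. The Ring1b_KD split of the 108 genes became 25 and 6 with the values as deposited and 40 and 2 with arrays centred on their medians. The split over all 18193 genes moved as well, from 1196 lower and 1029 higher to 1709 and 882 as deposited and 2543 and 352 centred. Among other spindle and centrosome proteins, 13 of 24 were lower and 0 higher in CBFb_KD, led by Kif20b (-0.63, adjusted p = 0.000206), Clasp1 (-0.61) and Spag5 (-0.61). Of 21 kinetochore and checkpoint genes, 16 were lower and 0 higher, with a median of -0.57.

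Among other mitotic kinases and regulators, 8 of 20 were lower and 2 higher in CBFb_KD, where 7.6% of all genes were lower and 7.78% higher. Lower were Plk4, the kinase of centriole duplication (-0.62, adjusted p = 0.000324), the Cdk1-binding Cks2 (-0.55) and Wee1, which inhibits Cdk1 (-0.57). Nek6, a kinase of spindle formation, was higher in both knockdowns: it read 7.68, 7.88 and 7.87 in CBFb_KD and 8.17, 8.25 and 8.17 in Ring1b_KD, against 7.27, 7.33 and 7.31 in Control. The 3 groups were apart, at 0.51 in CBFb_KD (adjusted p = 0.000822) and 0.89 in Ring1b_KD. Ensa, an inhibitor of the phosphatase PP2A in mitosis, was higher by 0.31 in CBFb_KD, but by 0.16 over the mean of its probe sets (adjusted p = 0.213).

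Other cytokinesis and abscission genes went both ways, with 2 of 20 lower and 3 higher in CBFb_KD and a median of 0.03. Over all genes, 7.6% were lower and 7.78% higher, so these few calls set the list little apart. Cep55, which recruits the abscission machinery to the midbody, read 8.72, 8.57 and 8.27 in CBFb_KD and 9.96, 9.65 and 9.96 in Ring1b_KD, against 9.71, 9.87 and 9.64 in Control. Its CBFb_KD arrays lay below all others, and it was 2.33-fold lower than in Control (log2 fold change -1.22, adjusted p = 4.21e-05), more than any of the 43 genes. Septin9, a filament-forming GTPase, read 10.91, 10.94 and 10.64 in CBFb_KD and 9.85, 9.55 and 9.63 in Ring1b_KD, against 9.54, 9.42 and 8.76 in Control. Its CBFb_KD arrays lay above all others, and it was 3.02-fold higher than in Control (1.59, adjusted p = 6.02e-05), with Control array 3 the lowest of the 9. The ESCRT-III subunits Chmp2a and Chmp4b were higher by 0.44 and 0.34, and Chmp4b was lower in Ring1b_KD, at -0.32 (adjusted p = 0.0197). That Chmp4b call was lost without Ring1b_KD array 3 (-0.24, adjusted p = 0.0552), and leaving out any 1 Control array gave adjusted p-values of 0.0545 to 0.0715.

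Subunits of the anaphase-promoting complex and its inhibitors were called lower in CBFb_KD in 3 of 16 cases and higher in 0. For this list and the next ones, the shares over all genes were 7.6% lower and 7.78% higher. The 3 called lower were Fbxo5, or Emi1, an inhibitor of the complex (-0.45), and the subunits Cdc23 (-0.32) and Cdc16 (-0.31). Over the means of their probe sets, Cdc23 and Cdc16 stood at -0.23 (adjusted p = 0.0558) and -0.10 (adjusted p = 0.49). Cdc23 also missed the threshold without Control array 3 (-0.30, adjusted p = 0.0526), and Cdc16 without CBFb_KD array 2 or 3, or Control array 1 or 2 (adjusted p = 0.0507 to 0.0575). Of 17 cohesin and condensin genes outside the 43, 7 were lower and 0 higher, led by Esco2, an acetyltransferase of cohesin (-0.88, adjusted p = 0.000357), the condensin II subunit Ncapg2 (-0.53) and Cdca5, or sororin (-0.67). In the DREAM and MuvB complexes, 3 of 11 were lower: E2f4 (-0.50), Tfdp1 (-0.34) and Rbl1 (-0.34), of which Rbl1 was the least steady. Its call was lost with the values as deposited (adjusted p = 0.0519), with arrays centred on their medians (adjusted p = 0.0578) and over the mean of its probe sets (-0.23, adjusted p = 0.0842). Without CBFb_KD array 2 or 3, Rbl1 stood at -0.23 (adjusted p = 0.159) and -0.38 (adjusted p = 0.0537), and without Control array 1, 2 or 3 at -0.31 (adjusted p = 0.116), -0.38 (adjusted p = 0.05) and -0.31 (adjusted p = 0.133). Tfdp1 missed the threshold without Control array 3 (-0.32, adjusted p = 0.0524).

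Markers of cell type moved with the groups as well. Of 16 megakaryocyte markers, 14 were measured and 9 stood above the median gene. In CBFb_KD, 7 were higher, where 7.78% of all genes were. These were Gp9 (2.32), Treml1 (1.82), Gp5 (1.68), Ppbp (1.62), Itga2b (1.04), Tal1 (0.54) and Zfpm1 (0.53). In Ring1b_KD, Vwf (-0.75) and Zfpm1 (-0.37) were lower and Tal1 (0.34) higher, where 6.57% and 5.66% of all genes were. The mean level of the 14 was 9.56 to 9.68 in CBFb_KD and 8.56 to 8.98 in Ring1b_KD, against 8.76 to 8.99 in Control. Pf4, a platelet chemokine, averaged 14.73 in CBFb_KD and 14.27 in Ring1b_KD, against 14.42 in Control, and was called in neither knockdown against Control. The integrin Itga2b averaged 12.25, 11.38 and 11.22, while Nfe2 was low everywhere at 5.37 to 5.39. In Ring1b_KD and Control, array 3 had the lowest Itga2b of its group, at 10.79 and 10.63. Of 7 erythroid markers, 5 were measured. Their mean level was 8.19 to 8.46 in CBFb_KD and 7.83 to 8.03 in Ring1b_KD, against 7.81 to 7.87 in Control. Alas2 (1.61) and Epor (0.55) were higher in CBFb_KD, while Slc4a1 (0.27), Hba-a1 (0.12) and Klf1 (-0.02) were not called. The mean level of mast cell markers was 7.36 to 7.53 in CBFb_KD and 7.80 to 8.07 in Ring1b_KD, against 7.62 to 8.09 in Control. Single mast cell markers moved more than that mean and in both directions: Ms4a2 was lower in CBFb_KD (-1.92) and in Ring1b_KD (-1.49), Kit lower in CBFb_KD (-0.39) and Fcer1a higher in Ring1b_KD (1.61).

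Granulocyte and monocyte markers lay at 7.01 to 7.26 in CBFb_KD and 6.97 to 7.23 in Ring1b_KD, against 7.19 to 7.31 in Control, and among them Ctsg was lower in both knockdowns (-0.69 and -0.80). Lymphocyte markers lay at 7.05 to 7.17, 7.18 to 7.27 and 7.06 to 7.15, and fibroblast markers at 6.81 to 6.95, 6.87 to 7.01 and 6.79 to 6.88, where Col1a2 alone was high in all groups (11.86, 11.62 and 11.47). The part of these cell types in the mitotic results was not tested. Signal differences between the 3′ and 5′ probe sets of Gapdh ranged from -0.0334 to 0.144 and those of Actb from 0.0302 to 0.128 over all 9 arrays.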

How the data were processed

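The 3 groups of L8057 cells have 3 arrays each, which the design text calls biological replicates. Biotin-labelled copies of poly(A) RNA were hybridised, per the labels' protocols. The deposited values, 45101 probe sets per array, span 3.227 to 15.355 and are log2 signals, judging by that range. How the authors summarised and normalized them, and when arrays were scanned, is not given in the sources used here. The number of arrays limits the precision.

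Array medians ran from 6.514 to 6.651, highest in Ring1b_KD, so the deposited log2 values were quantile normalized over all probe sets in limma 3.58.1 (R 4.3.3). The 64 control probe sets were then dropped. In the platform annotation, 34945 probe sets had a single symbol and 932 had more than 1, and the brightest single-symbol probe set stood for each of 18193 genes. Group means of all 9 arrays were fitted with lmFit and eBayes(trend = TRUE) (prior degrees of freedom 6.805). Tests were two-sided, with Benjamini-Hochberg adjustment over all genes and calls under 0.05. The fit was tested on simulated data. The members and lists were chosen with earlier results of these data known, so counts and medians are given without a test of the list.

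Values on all arrays are given for the 2 genes of each role with the smallest adjusted p in CBFb_KD, for genes called in Ring1b_KD and for genes not called in CBFb_KD. The labels number replicates alike in each group. Between CBFb_KD and Control, arrays with the same number deviated together from their group means in each pair (correlations 0.203, 0.377 and 0.2), as they did not in every pair of the other comparisons. The fit with the number as a block is therefore given beside the CBFb_KD results whose call it changed. Of each further list, up to 3 called genes with the smallest adjusted p and any called against most are named. Alternatives were other scalings, a filter at the 30th percentile, averaging the probe sets of a gene, a robust variance, a replicate block, 2-group fits and leaving out each array.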

Additional observations from a re-analysis of the deposited data

How the results depend on the processing

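Over 17 alternatives, 679 of 731 values of all 43 genes in CBFb_KD against Control kept their direction and side of the threshold, 42 lost their call, 10 gained one and 0 reversed. In the other comparisons only genes already called were followed, so calls gained do not appear in these tallies. Of the 5 genes called in Ring1b_KD against Control, 76 of 85 values did and 9 lost their call. Of the 25 called between the knockdowns, 340 of 425 did, 84 lost their call and 1 reversed, namely Smc2, at 0.05 with the mean of its probe sets. With the values as deposited, 16 genes were lower in Ring1b_KD than in Control and 13 lower in CBFb_KD than in Ring1b_KD. With arrays centred on their medians these counts were 18 and 6, with 2 higher in CBFb_KD than in Ring1b_KD, and the median log2 fold changes were -0.27 and -0.15. The number higher in CBFb_KD than in Control was 1 (Ect2) with the values as deposited, the 30th percentile filter, the robust variance, the replicate block and the fit of the 2 groups alone. That filter gave 1 gene higher in Ring1b_KD.

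Leaving out each array in turn, genes lower in CBFb_KD than in Control numbered 25 to 37, higher 0 to 1, with medians of -0.53 to -0.37. For Ring1b_KD against Control these were 2 to 7, 0 to 1 and -0.13 to -0.04. For CBFb_KD against Ring1b_KD they were 12 to 30, 1 to 1 and -0.41 to -0.27. The labels number the replicates alike in each group. The deviations of arrays with the same number correlated at -0.0677 to 0.153 between Ring1b_KD and the other groups, where the numbers were not taken as pairs. With the replicate number as a block, 37 genes were lower and 1 higher in CBFb_KD, where Ect2 and Pttg1 were the only calls of the 43 genes that changed, 7 lower and 2 higher (Aurka and Ect2) in Ring1b_KD, and 28 lower and 1 higher in CBFb_KD against Ring1b_KD. The cause of these shifts was not tested. Kif15 and Cdc25c had signals near the median gene at 7.42, and whether any gene stood above background was not tested.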
